A study of Homo sapiens with 18 samples.

Results

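The response of A375 cells to increasing doses of IMD-0354 after 24 h was described by its shape over dose: which transcripts climbed or fell step by step, which moved at a single step and then held, which moved at the highest dose alone, and which turned back. A375 is an established human melanoma line with an activating BRAF mutation. IMD-0354 is a small molecule known as an inhibitor of IKKβ, the kinase that releases NF-κB from its inhibitors. The 12 libraries used were all those of 24 h among the 18 of the series, 3 in each of 4 groups: untreated A375 cells and A375 cells given 0.32, 0.63 or 1.25 µM IMD-0354. What the untreated cells received is not stated in the labels, and all groups were the same line in the same medium. The remaining 6 libraries, 3 untreated and 3 given 0.63 µM for 48 h, were used for a single comparison with cells that had no part in defining the shapes. Values were TPM (a transcript's share of its library after division by length) from 3′ end sequencing, which rescales each library to a fixed total. Of 60504 identifiers in the table, the 14064 that reached 1 TPM in 3 or more of the 12 libraries were described. Just inside that limit, 808 genes reached 1 TPM in exactly 3 libraries, with a median mean level of 0.668 TPM over the 12, and just outside it 1248 genes reached it in exactly 2, with a median of 0.463 TPM.

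Depth cannot be given, because TPM keeps no read counts. Between 14647 and 16408 genes were above 0 in a library, no 2 of the 12 libraries were identical, and Pearson's r between pairs of libraries, taken across genes that are themselves not independent, lay between 0.859 and 0.948. Separate cultures are not stated for the 3 libraries of a group, so the p-values rest on a spread between samples that could be technical. Defining markers of leukocytes, keratinocytes, fibroblasts and endothelium all had means under 1 TPM, while the melanoma genes SOX10, MITF and AXL were present and of the pigment cell genes TYR was at 0 in every library and DCT, MLANA and PMEL had medians of 0. The number that opens each library's description has no meaning stated. It ran from 50 to 66 in the untreated, 74 to 90 in the 0.32 µM, 3 to 19 in the 0.63 µM and 27 to 43 in the 1.25 µM group. Whatever it stands for cannot be told apart from dose group, with the widest divide at the boundary between 0.32 and 0.63 µM. The third library at 1.25 µM and the third at 0.63 µM stood apart from their groups for several gene groups, and values by library or counts without them stand beside results they touch.

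As background, cells under amino acid shortage, misfolded protein or mitochondrial failure phosphorylate the translation factor eIF2α, which lowers protein synthesis in general while the transcription factor ATF4 is made. ATF4 drives genes of amino acid supply and, with its target CHOP, genes of stress signalling; this programme is called the integrated stress response. Dividing cells switch on E2F target genes for DNA replication and later a set of G2 and mitosis genes held down by the DREAM complex in resting cells. Heat shock factor HSF1 keeps cytosolic chaperone genes active in many tumour cells.

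Short stretches of promoter show the sequence elements that such genes carry, and each was read from RefSeq on GRCh38.p14, 5′ to 3′ on the gene's strand, entirely before the RefSeq start. The first set shows the ATF4 response element in capitals, TGATGNAA in either orientation, in stress genes that rose: ASNS at chr7:97872449-97872496, CHAC1 at chr15:40953242-40953289 and HERPUD1 at chr16:56931946-56931993.
ASNS: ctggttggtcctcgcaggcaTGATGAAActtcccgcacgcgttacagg
CHAC1: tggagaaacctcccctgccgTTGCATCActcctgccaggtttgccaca
HERPUD1: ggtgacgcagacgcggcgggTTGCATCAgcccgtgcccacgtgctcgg
The second set shows the cell cycle homology region (CHR), TTTGAA in either orientation, to which the DREAM complex binds, in genes that fell in a graded way: CDK1 at chr10:60778150-60778195 and MKI67 at chr10:128126445-128126490.
CDK1: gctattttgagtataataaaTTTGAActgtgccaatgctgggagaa
MKI67: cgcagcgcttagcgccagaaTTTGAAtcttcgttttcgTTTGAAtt
The last set shows heat shock elements, GAA, TTC and GAA each parted by any 2 bases, in either orientation, which HSF1 binds, in chaperone genes that fell at 0.63 µM: HSPA8 at chr11:123062159-123062211 and CHORDC1 at chr11:90223077-90223129.
HSPA8: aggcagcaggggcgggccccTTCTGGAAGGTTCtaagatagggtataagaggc
CHORDC1: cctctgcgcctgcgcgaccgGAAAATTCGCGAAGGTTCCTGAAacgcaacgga
CHORDC1 carries overlapping matches on both strands, which its capitals join. Of these genes CHAC1 lost its call in 14 of 25 other settings (adjusted p up to 0.116 in limma), each library at 0.32, 0.63 and 1.25 µM left out among them, and MKI67 in 9 (up to 0.115), among them without the first untreated library or the second or the third at 1.25 µM.

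Of 42 ATF4 targets 17 rose, 10 of them in a step at 0.63 µM, and of 45 G2 and mitosis genes 26 fell, 16 of them in a graded way and 9 mainly at 1.25 µM. The test asked whether any of the 4 dose groups differed, with an F test in limma on log2(TPM + 1), Benjamini-Hochberg adjustment over all 14064 genes and a threshold of 0.05. It was passed by 729 genes, 5.18% of those tested, of which 340 rose (2.42%) and 389 fell (2.77%) at the dose where they lay farthest from untreated. The count was 271 without the third library at 1.25 µM, 343 and 353 without the first and second at that dose, 398 to 459 without 1 of the 3 at 0.32 µM, 448 without the first at 0.63 µM and 465 without the first untreated library. With TPM rescaled without the 10 most abundant genes 297 rose and 473 fell. A straight line over dose on the log2 scale sloped upward for 721 genes (5.13%) and downward for 911 (6.48%). The upward count was 416, 363 and 386 without the first, second and the third library at 1.25 µM, and the downward count 584 and 418 without the second and the third. In bulk samples fewer cells that hold a transcript and less of it per cell cannot be told apart. No gene departed from the straight line after adjustment (smallest adjusted p = 0.0585 in limma; 1187 genes had an unadjusted p under 0.05), although 1 to 9 genes did under other settings. Shape beyond the line is therefore given as a description of group means.

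Each gene's shape was read from its 3 differences from untreated on the log2(TPM + 1) scale, all of which share the same untreated libraries. The difference farthest from 0 was taken as the full response, and the other doses were called low, middle or high at 33.3% and 66.7% of it. Low reached as far as 33.3% in the opposite direction, and anything beyond that was called opposite. Low, middle or high at the first and second dose gave the names graded (reaching the full response by way of the middle range), late (low at both 0.32 and 0.63 µM), step at 0.63 (low at 0.32 µM and high from 0.63 µM on), early plateau (high from 0.32 µM on) and turn (farthest from untreated at 0.63 or 0.32 µM with return at the next dose). All other patterns were irregular. A graded gene could thus start in the opposite direction, as SNHG5 (-29.4%) and HSPA5 (-13.6%) did at 0.32 µM. Of the 729 genes, 306 were graded, 145 late, 143 a step at 0.63 µM, 36 a turn at 0.63 µM, 14 an early plateau, 12 a turn at 0.32 µM and 73 irregular. Graded, late and step shapes made up 42%, 19.9% and 19.6% of genes that passed, against 17.7%, 9% and 9.62% of all genes tested. Turns at 0.63 µM made up 4.94% of genes that passed against 19.3% of all genes tested. Leaving out 1 library at a time gave 117 to 313 graded, 71 to 165 step and 10 to 54 turn genes at 0.63 µM, and 43 (without the third library at 1.25 µM) to 234 (without the second untreated one) late genes.

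**Figure D1:**
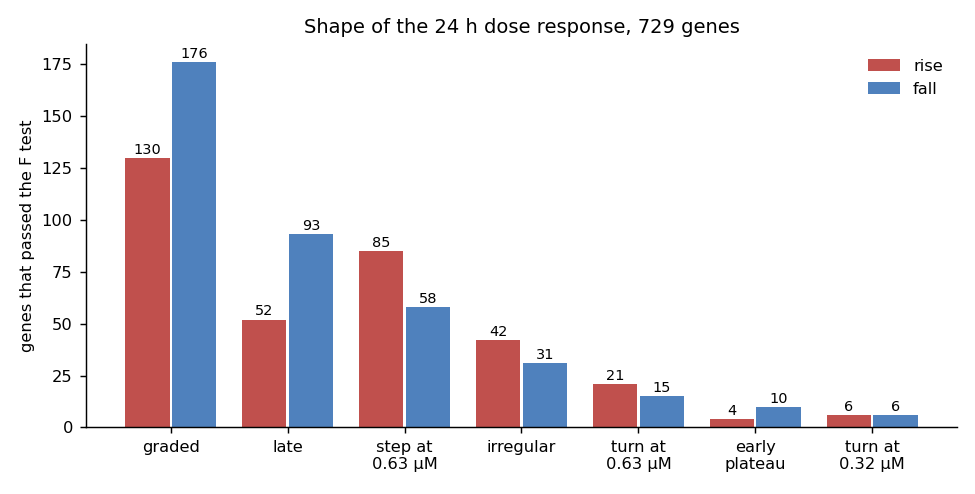
Number of genes that passed the F test (vertical axis) in each shape class, with bars for rises and falls side by side. Graded falls (176) and graded rises (130) were the most frequent shapes, and early plateaus the least frequent but for turns at 0.32 µM.

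The full response lay at 1.25 µM in 266 of 340 rises and 345 of 389 falls, at 0.63 µM in 63 rises and 33 falls, and at 0.32 µM in 11 of each. Among rises largest at 1.25 µM the median gene had covered 7.4% of its difference at 0.32 µM and 56.1% at 0.63 µM. Among falls these medians were 10.7% and 43.4%. Group means were strictly ordered over the 4 doses in 355 of the 729 genes (48.7%) and in 2488 of all 14064 (17.7%). The 3 libraries at 0.63 µM lay all above those at 0.32 µM in 255 of the 729 genes and all below in 241; among all genes tested 21.1% failed to overlap at this step in either direction. At the step from 0.63 to 1.25 µM the counts were 192 and 275 (also 21.1% of all genes tested), and from untreated to 0.32 µM they were 74 and 82 (8.96% of all genes tested). The 729 genes were chosen by a test on these same libraries, which by itself raises ordered means and lack of overlap among them.

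**Figure D2:**
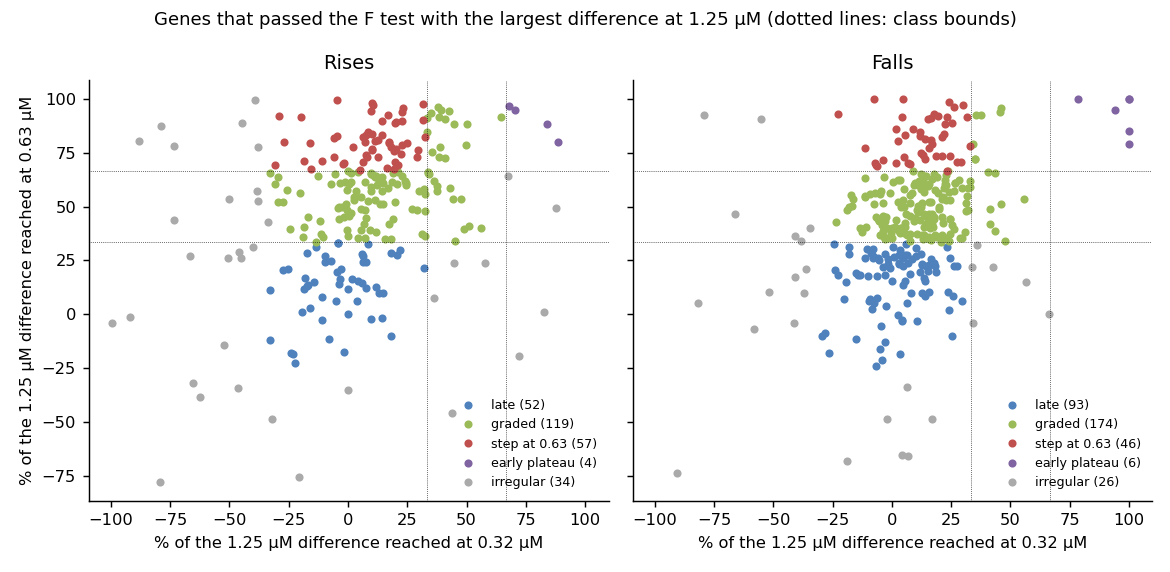
Share of each gene's log2 difference at 1.25 µM that was reached at 0.32 µM (horizontal axis, percent) and at 0.63 µM (vertical axis, percent), 1 point per gene coloured by shape, for genes that passed the F test and lay farthest from untreated at 1.25 µM; dotted lines mark the bounds between shapes. The medians stood at 7.4% and 56.1% for 266 rises and at 10.7% and 43.4% for 345 falls.

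Stepwise rises at 0.63 µM, 85 genes against 58 stepwise falls, included 10 of the 42 measured ATF4 targets (the class had 68 rises and 85 falls with TPM rescaled without the 10 most abundant genes). Their median difference from untreated was 0.21 at 0.32 µM, 1.40 at 0.63 µM and 1.35 at 1.25 µM. For 81 of the 85 the 95% interval of the difference between 0.63 and 1.25 µM covered 0, in part because of how the shape was chosen. This does not show that the 2 doses gave the same level. TRIB3 (chr20:362835-397559), a pseudokinase gene induced by ATF4 and CHOP, was at 16.8, 9.91 and 15.4 TPM in untreated cells, 21.3, 18.5 and 18.1 at 0.32 µM, 52.6, 63 and 65.9 at 0.63 µM and 81.2, 80.0 and 57.5 at 1.25 µM. The upper pair of doses overlapped and lay above all libraries of the lower pair. Its differences from untreated were 0.46, 2.06 and 2.31 (SE 0.23; adjusted p = 0.000335 in the limma F test), and the interval of the last step ran from -0.24 to 0.75. SESN2 (chr1:28259527-28282491), whose product restrains mTORC1 signalling, was at 10.3, 8.24 and 5.72 TPM untreated, 10.2, 7.07 and 10.6 at 0.32 µM, 39.2, 47.1 and 29.7 at 0.63 µM and 62.3, 61.9 and 34.9 at 1.25 µM. It had the same 2-level pattern (adjusted p = 0.000744 in limma), as did STC2, a secreted glycoprotein gene, at 4.28 to 7.71 TPM over the 6 lower libraries and 16.1 to 28.9 TPM over the 6 upper ones.

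In GDF15 and DDIT3 the third library at 0.63 µM sat at the level of 1.25 µM. GDF15 (chr19:18374731-18389176), a secreted stress cytokine, was at 2.90, 2.54 and 5.96 TPM untreated, 0.96, 3.93 and 5.08 at 0.32 µM, 43.7, 57.0 and 284 at 0.63 µM and 140, 138 and 246 at 1.25 µM. No untreated or 0.32 µM library came near the 6 higher ones, while the spread at 0.63 µM was wide. Its differences were -0.24, 4.30 and 5.21 (SE 0.63; adjusted p = 0.000715 in limma). DDIT3, which encodes CHOP (chr12:57516588-57521737), was at 18.4, 14.0 and 12.4 TPM untreated, 10.9, 21.4 and 16.0 at 0.32 µM, 91.9, 83.7 and 256 at 0.63 µM and 214, 224 and 252 at 1.25 µM. Its differences were 0.07, 3.01 and 3.87 (SE 0.37), and without the third library at 0.63 µM its shape was graded, still past the F test.

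**Figure D3:**
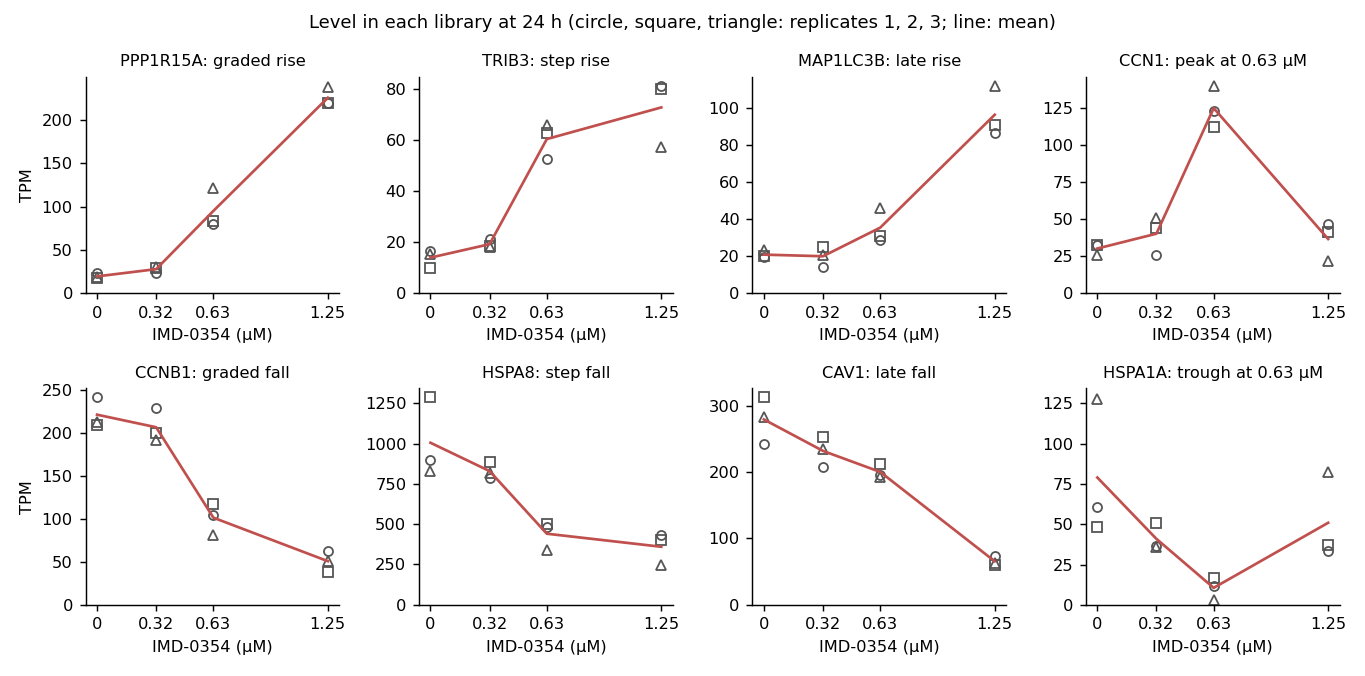
TPM of single genes in each of the 12 libraries (points, 1 symbol per replicate number) with the group mean (line) over dose in µM, on linear TPM axes that start at 0. TRIB3 separates between 0.32 and 0.63 µM, CCNB1 falls at both upper doses, CAV1 falls at 1.25 µM, and CCN1 is highest at 0.63 µM.

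The ATF4 target list had 42 measured genes, 18 of which passed the F test (42.9%, against 5.18% of all genes tested), 17 as rises and 1, ATF5, as a fall. Of the 17 rises 10 were steps at 0.63 µM (CEBPB, CEBPG, DDIT3, GDF15, GTPBP2, NUPR1, SESN2, SLC1A4, STC2 and TRIB3), 4 turned at 0.63 µM (ASNS, DDIT4, GPT2 and MTHFD2) and 3 were graded (CHAC1, PPP1R15A and SLC3A2). Median differences over the 42 genes were 0.08, 1.07 and 0.81 at the 3 doses, against 0, 0.01 and -0.01 over all genes tested. The list thus stood highest at 0.63 µM, and 25 of 42 members lay farthest from untreated there, as did 4395 of all 14064 genes. By library the list's median was 1.06, 1.10 and 1.06 at 0.63 µM and 0.94, 0.89 and 0.46 at 1.25 µM, so the third library at 1.25 µM was the lowest of the 6. Leaving out any single library left the count of passing members within 1.5 times of 18. ATF4 itself, whose product is controlled mainly at translation, did not pass (216.8, 329 and 203 TPM untreated, 332, 315 and 314 at 0.63 µM; adjusted p = 0.498 in limma). The ATF4 response element was found in 17.6% of 34 promoters of this list and in 1.73% of the 9772 promoters of tested genes. Among rises it was in 3 of 60 step (5%), 4 of 91 graded (4.4%), 2 of 35 late (5.71%) and 1 of 14 turn promoters at 0.63 µM (7.14%). In falls of these shapes its share was at most 1.23%.

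Ferritin, small MAF factors and ERK target genes also included step rises. FTH1, the iron-storing heavy chain of ferritin (chr11:61959718-61967660), was at 2949.65, 2263 and 2717 TPM untreated, 3789, 3982 and 3880.12 at 0.32 µM, 6550.37, 6926 and 8384 at 0.63 µM and 10499, 11114 and 8364 at 1.25 µM. Its 3 libraries at 0.32 µM were already all above the untreated ones, and its differences were 0.56, 1.46 and 1.92 (SE 0.15; adjusted p = 0.00017 in limma). Of 22 genes of ERK pathway output 6 passed (27.3%, against 5.18% of all genes tested), all rises: DUSP5, EGR1, MYC and PHLDA1 as steps, PLAUR as graded and FOSL1 as a turn (3 passed without the first or the second library at 1.25 µM). MYC, a growth-promoting transcription factor, was at 0.84 to 2.83 TPM over the 6 lower libraries and 5.58 to 10.2 TPM over the 6 upper ones, with no overlap (differences 0.23, 1.61 and 1.99; adjusted p = 0.00763 in limma). Of 21 AP-1 and immediate early genes, a list that shares EGR1 and FOSL1 with the last, 6 passed (28.6%), all rises: DUSP1 and EGR1 as steps, MAFF and MAFK as graded, KLF6 late and FOSL1 as a turn (3 and 2 passed without the first and second libraries at 1.25 µM).

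Stepwise falls at 0.63 µM, 58 genes, had median differences of -0.21, -1.08 and -1.22. The interval of the last step covered 0 in all 58, in part because of how the shape was chosen. Cytosolic chaperones were among them. HSPA8, the constitutive HSP70 of the cytosol (chr11:123057489-123063230), was at 897, 1292 and 829 TPM untreated, 788, 885 and 816 at 0.32 µM, 481, 502 and 339.7 at 0.63 µM and 429.8, 401 and 249 at 1.25 µM. All 6 upper libraries lay below all 6 lower ones (differences -0.25, -1.18 and -1.49, SE 0.24; adjusted p = 0.0082 in limma). CHORDC1, an HSP90 partner gene, was at 51.5 to 136 TPM over the lower libraries and 24.1 to 42.6 TPM over the upper ones (adjusted p = 0.0259 in limma) and lost its call without the second library at 0.32 µM or the first or the third at 1.25 µM (adjusted p = 0.0505 to 0.0612).

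Of 22 heat shock response genes 11 passed (50%, against 5.18% of all genes tested), all falls. Of these 6 were graded (HSPA4, HSP90AA1, HSP90AB1, HSPD1, HSPE1 and CACYBP), 3 were steps (HSPA8, DNAJA1 and CHORDC1) and 2 turned at 0.63 µM (HSPA1A and DNAJB1). The median difference over the 22 was -0.18, -0.67 and -0.77. The count was 4 without the third library at 1.25 µM, 6 without the first or the second at that dose, 6 and 7 without the third and second at 0.32 µM and 7 without the first at 0.63 µM. The heat shock element was found in 3 of 20 promoters of the list (15%), in 3 of 44 promoters of stepwise falls (6.82%) and in 0.297% of all 9772. These small sets are not separate, since HSPA8 and CHORDC1 belong to both. The element was found in 0 of 146 promoters of graded falls, 0 of 81 of late falls and 0 of 8 of falls that turned at 0.63 µM. Nucleolar genes NCL, NOP56 and WDR43, which serve ribosome assembly, were also step falls, but lost their calls in 11, 15 and 14 of 25 other settings. Of 30 ribosome biogenesis genes 4 passed in all (13.3%, against 5.18% of all genes tested), 3 falls and MYC, and 1 or 2 did without each of 10 of the 12 libraries. RNU6-1016P, a U6 small nuclear RNA pseudogene, was at 71.6, 36.2 and 137 TPM untreated, 152, 30.0 and 41.4 at 0.32 µM and listed at 0 in all 6 libraries at 0.63 and 1.25 µM. It was also listed at 0 in all 3 untreated libraries of 48 h.

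Graded falls, 176 genes, were the most frequent shape and included 16 genes of the G2 and mitosis list and 10 of the E2F target list. Their median differences were -0.20, -0.75 and -1.54. CCNB1, cyclin B1 (chr5:69167010-69178245), was at 242, 210.0 and 213 TPM untreated, 229, 200 and 192 at 0.32 µM, 105, 118 and 81.7 at 0.63 µM and 63, 37.9 and 51.6 at 1.25 µM. The 3 levels (untreated with 0.32 µM, 0.63 µM and 1.25 µM) did not overlap, with differences of -0.10, -1.13 and -2.13 (SE 0.20; adjusted p = 0.000404 in limma). Its last step was -1, with an interval from -1.44 to -0.55. CDK1, the kinase that cyclin B1 activates at mitosis (chr10:60778331-60794852), was at 167, 170.0 and 190 TPM untreated, 132, 188 and 176 at 0.32 µM, 98.5, 123 and 51.1 at 0.63 µM and 34.2, 31.5 and 15.1 at 1.25 µM. Its differences were -0.10, -1.03 and -2.74 (SE 0.34; adjusted p = 0.00246 in limma), and without the third library at 0.63 µM its shape was late. H1-5, a linker histone gene made mainly in S phase, fell farthest of these, from 28.3, 46.3 and 33.6 TPM untreated to 2.89, 3.57 and 0.83 TPM at 1.25 µM (difference -3.51, SE 0.41).

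Of 45 measured G2 and mitosis genes 26 passed (57.8%, against 5.18% of all genes tested), all falls: 16 graded, 9 late and 1, BUB1B, a step. The late group held the chromosome untangling enzyme gene TOP2A and the kinetochore genes CENPA, CENPF and NDC80, and the graded group the kinesins KIF11 and KIF20A, the kinase AURKA and the scaffold ANLN. Median differences over the 45 genes were -0.07, -0.60 and -1.50, and 40 of them lay farthest from untreated at 1.25 µM. By library the median was -0.56, -0.28 and -0.74 at 0.63 µM and -1.16, -1.21 and -2.04 at 1.25 µM, so the third library at 1.25 µM was the lowest. Without it 13 members passed, and without the second library at 0.32 µM 17 passed. The CHR was found in 70.3% of 37 promoters of the list, 21.9% of 146 promoters of graded falls, 21% of 81 promoters of late falls, 9.09% of 44 promoters of stepwise falls and 9.62% of all 9772. The CCAAT box (CCAAT, either strand) was found in 75.7% of the list's promoters, 58.2% of graded falls, 51.9% of late falls, 50% of step rises, 49.5% of graded rises, 36.4% of step falls and 37.4% of all.

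**Figure D4:**
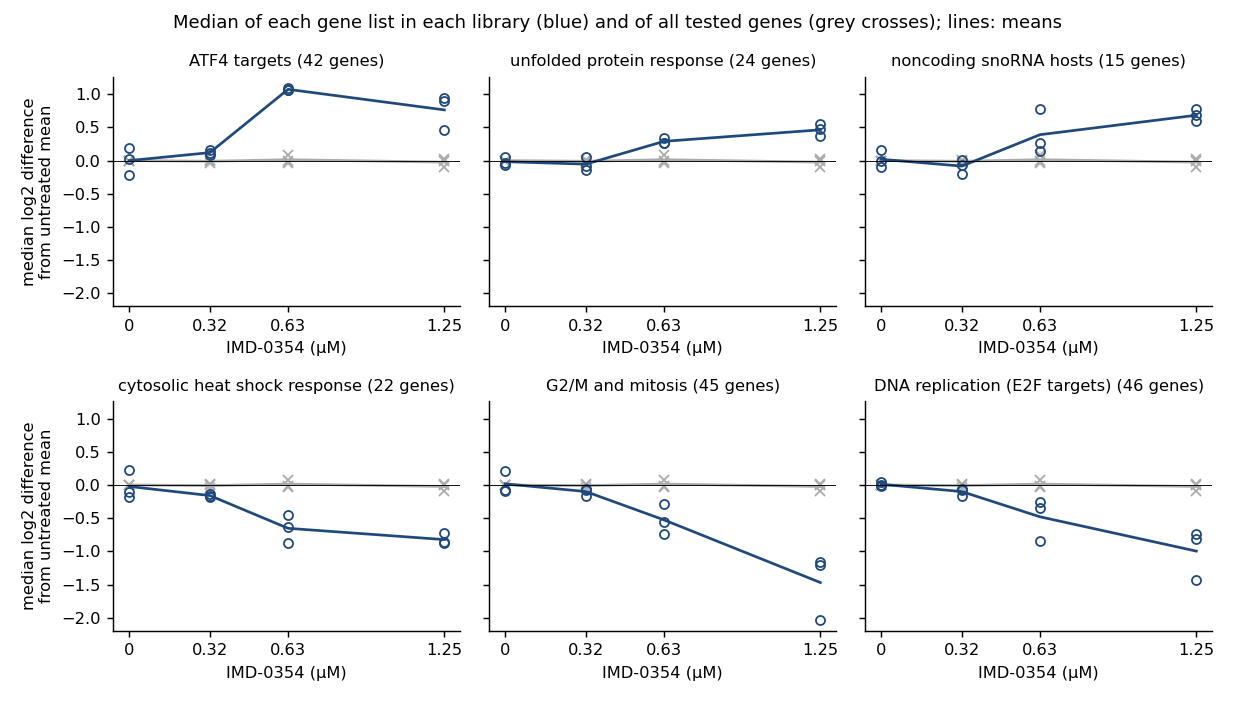
Median difference from the untreated mean on the log2(TPM + 1) scale over the measured members of each gene list, 1 point per library, by dose in µM, with the same over all genes tested as grey crosses; lines join the group means. ATF4 targets stand at 1.06 to 1.10 at 0.63 µM and 0.46 to 0.94 at 1.25 µM, while G2 and mitosis genes go from -0.28 to -0.74 at 0.63 µM to -1.16 to -2.04 at 1.25 µM.

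DNA replication genes had a similar course. Of 46 measured E2F targets 18 passed (39.1%, against 5.18% of all genes tested), all falls. They were 10 graded (among them PCNA, MCM3, MCM6, MCM10, RRM2 and TK1), 4 late (among them E2F1, RFC3 and TYMS), 1 step (MCM4), 1 early plateau (GINS4) and 2 irregular (CHEK1 and RRM1). Median differences were -0.10, -0.47 and -1.15. By library the median was -0.34, -0.26 and -0.84 at 0.63 µM, the third library lying lowest, and -0.74, -0.82 and -1.43 at 1.25 µM. The count was 5 without the third library at 1.25 µM and 7 without the second. The CHR was found in 2.63% of 38 promoters of this list and the CCAAT box in 57.9%.

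Graded rises, 130 genes, had median differences of 0.22, 0.87 and 1.53. PPP1R15A, which encodes the phosphatase subunit GADD34 that reverses eIF2α phosphorylation (chr19:48872392-48876057), gave the smallest p of all genes. It was at 23.0, 17.4 and 18.5 TPM untreated, 23.8, 29.7 and 30.4 at 0.32 µM, 80.5, 83.5 and 121 at 0.63 µM and 219, 219 and 238 at 1.25 µM. Each dose lay wholly above the one before, with differences of 0.49, 2.20 and 3.46 (SE 0.20; adjusted p = 2.54e-05 in limma) and a last step of 1.26 (interval 0.83 to 1.69). IL24, which encodes a secreted cytokine (chr1:206897443-206904139), was at 8.73, 3.08 and 6.94 TPM untreated, 9.48, 10.3 and 13.0 at 0.32 µM, 45.2, 49.2 and 141 at 0.63 µM and 256, 279 and 399 at 1.25 µM. Here too the 4 groups did not overlap (differences 0.80, 3.34 and 5.49, SE 0.42; adjusted p = 0.000166 in limma). GADD45A, a growth arrest gene, was at 34.8, 98.2 and 31.4 TPM untreated, 47.0, 56.1 and 55.9 at 0.32 µM, 118, 113 and 179 at 0.63 µM and 272, 287 and 398 at 1.25 µM. Its second untreated library overlapped neither upper dose but exceeded all at 0.32 µM.

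Of 15 measured noncoding hosts of small nucleolar RNAs 7 passed (46.7%, against 5.18% of all genes tested). They were GAS5, SNHG5, SNHG29 and ZFAS1 as graded rises, SNHG32 late, SNHG12 irregular and SNHG3 as a turn. GAS5 (chr1:173863900-173868882), whose spliced RNA is cleared when ribosomes translate it, was at 252, 278 and 279 TPM untreated, 231, 340.4 and 333 at 0.32 µM, 462, 399.85 and 624 at 0.63 µM and 1005, 984 and 1354 at 1.25 µM. The untreated and 0.32 µM libraries overlapped and each higher dose stood clear (differences 0.14, 0.85 and 2.03, SE 0.21; adjusted p = 0.000737 in limma). SNHG3 went the other way at the last step, at 21.9 to 27.8 TPM untreated, 45.0 to 47.5 at 0.63 µM and 10.1 to 19.2 at 1.25 µM (differences 0.24, 0.84 and -0.76; adjusted p = 0.0107 in limma). The host count was 4 without the third library at 0.32 µM or without any single library at 1.25 µM.

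Of 39 measured autophagy and lysosome genes 6 passed (15.4%, against 5.18% of all genes tested), all rises. Among them were CTSB, NPC1, SQSTM1 and WIPI1 as graded and MAP1LC3B as late. NPC1 lost its call in 14 of 25 other settings (adjusted p up to 0.122 in limma), each library at 1.25 µM left out among them. WIPI1, which acts at forming autophagosomes, was at 0.80 to 3.29 TPM untreated, 2.45 to 6.69 at 0.32 µM, 7.45 to 13.3 at 0.63 µM and 16.3 to 21.5 at 1.25 µM (differences 0.98, 1.90 and 2.90, SE 0.38; adjusted p = 0.00547 in limma). Of 24 endoplasmic reticulum stress (unfolded protein response) genes 3 passed (12.5%), all rises: HSPA5 and HYOU1 graded and HERPUD1 a step, with list medians of -0.06, 0.29 and 0.55. HSPA5, the chaperone BiP, was at 137 to 240 TPM untreated, 155 to 160 at 0.32 µM, 219.9 to 273 at 0.63 µM and 432 to 467 at 1.25 µM, so it overlapped with untreated at 0.63 µM and stood clear at 1.25 µM. Its difference at 0.63 µM was 33.4% of that at 1.25 µM, next to the limit between late and graded.

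Late genes, low at both 0.32 and 0.63 µM and changed at 1.25 µM, were 93 falls and 52 rises. Falls had median differences of -0.03, -0.28 and -1.41 and rises -0.08, 0.21 and 1.44. The interval of the last step left out 0 in all 145, in part because of how the shape was chosen. CAV1, caveolin 1 of the plasma membrane (chr7:116524785-116561184), was at 242, 313 and 282 TPM untreated, 208, 252 and 235 at 0.32 µM, 195, 212 and 193 at 0.63 µM and 73.6, 59.9 and 62.9 at 1.25 µM. The libraries at 1.25 µM stood far below the others (differences -0.27, -0.47 and -2.07, SE 0.16; adjusted p = 0.000166 in limma; last step -1.60, interval -1.94 to -1.26). THBS1, the matrix protein thrombospondin 1 (chr15:39581079-39599466), was at 80.8, 77.4 and 62.6 TPM untreated, 80.6, 90.8 and 91.6 at 0.32 µM, 71.7, 82.8 and 43.4 at 0.63 µM and 12.5, 11.0 and 7.17 at 1.25 µM. The first 3 groups overlapped, and the last stood clear (differences 0.26, -0.20 and -2.76, SE 0.26). TYMS, thymidylate synthase, was at 49.0 to 62.8 TPM untreated, 35.8 to 64.3 at 0.32 µM, 27.6 to 46.5 at 0.63 µM and 12 to 14.6 at 1.25 µM. CEP152, a centriole scaffold gene, was between 49.2 and 62.6 TPM untreated, between 29.2 and 57.2 at 0.63 µM and between 5.90 and 10.2 at 1.25 µM.

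Late rises included genes near 0 at lower doses. HRK, a BH3-only promoter of cell death, was at 0 in all untreated libraries, at most 0.10 TPM at 0.32 µM, 1.01, 0.08 and 0.09 at 0.63 µM and 5.95, 3.74 and 4.95 at 1.25 µM (difference 2.54 at 1.25 µM, SE 0.34; adjusted p = 0.00317 in limma). Outside 1.25 µM only the library at 1.01 TPM reached 1 TPM, so HRK passed the filter through the group where it was high. Its call and its place in the next count rest on that group. Of 15 BCL2 family genes 3 passed (20%, against 5.18% of all genes tested), all rises: the death promoter HRK and the survival genes BCL2A1 (late) and BCL2L2 (graded). The count was 1 without the third library at 0.32 µM, the first at 1.25 µM or the third at 1.25 µM. MAP1LC3B, the autophagosome protein LC3B, was at 19.5, 20.1 and 23.3 TPM untreated, 14.3, 25.3 and 20.7 at 0.32 µM, 29, 31.3 and 46.4 at 0.63 µM and 86.8, 90.9 and 112 at 1.25 µM. It did not overlap with lower doses at 0.63 µM either, at 33.1% of its full difference, and was graded without the third untreated library, the first or second at 0.63 µM or the third at 1.25 µM. SNHG32 had the same 33.1% and the same exceptions. CDKN1A, the cell cycle inhibitor p21, did not pass (adjusted p = 0.0632 in limma), at 6.45 to 27.3 TPM untreated, 15.0 to 32.3 at 0.63 µM and 41.5, 43.8 and 103 at 1.25 µM.

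Turns at 0.63 µM were the shape for 21 rises and 15 falls among genes that passed the F test (14 and 16 with TPM rescaled without the 10 most abundant genes). An added test asked for each gene whether 0.63 µM lay above both 0.32 and 1.25 µM, or below both. No gene passed after adjustment (smallest adjusted p = 0.719 in limma for RNF139-DT), and 234 genes had an unadjusted p under 0.05. RNF139-DT could pass the filter only through its libraries at 0.63 µM. CCN1, a secreted matrix protein gene and YAP target (chr1:85580761-85583962), was the clearest abundant case, at 32.5, 32.8 and 25.6 TPM untreated, 25.7, 44.2 and 51.0 at 0.32 µM, 123, 112 and 140 at 0.63 µM and 46.5, 41.6 and 22.0 at 1.25 µM. All 3 libraries at 0.63 µM stood above the other 9. Its differences were 0.35, 2.02 and 0.21 (SE 0.30; adjusted p = 0.00773 in the limma F test), and the step down to 1.25 µM was -1.81 (interval -2.46 to -1.15). Its peak did not pass (adjusted p = 0.903 in limma).

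Of the 42 ATF4 targets 4 were turns at 0.63 µM. ASNS, asparagine synthetase (chr7:97852118-97872542), was at 31.1, 40.0 and 54.6 TPM untreated, 45.7, 36.6 and 33.4 at 0.32 µM, 96.8, 110 and 150 at 0.63 µM and 84.2, 104 and 49.2 at 1.25 µM. The upper groups overlapped, the interval of the last step (-1.27 to 0.01) covered 0, and without the third library at 1.25 µM its shape was a step; without the third at 0.63 µM it did not pass the F test (adjusted p = 0.0538 in limma). The 3 members named next lay outside the rule for naming genes and were chosen after their values were seen. MTHFD2, a mitochondrial folate enzyme gene, was at 104 to 138 TPM untreated, 252 to 308 at 0.63 µM and 180, 188 and 108 at 1.25 µM. DDIT4, an mTORC1 inhibitor gene, was at 17.5 to 30.7 TPM untreated, 61.0 to 80.5 at 0.63 µM and 34.0 to 47.5 at 1.25 µM, with no overlap between these 3 groups (differences 0.13, 1.67 and 0.75; adjusted p = 0.0053 in limma). GPT2, a mitochondrial alanine aminotransferase gene, was at 11.7 to 15.0, 28.1 to 34.5 and 13.3 to 21.6 TPM in the same groups.

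Among falls that turned, HSPA1A, a heat-inducible HSP70 with a near-identical copy, was at 60.6, 48.4 and 128 TPM untreated, 36.4, 50.6 and 35.7 at 0.32 µM, 11.9, 16.7 and 2.90 at 0.63 µM and 33.1, 37.2 and 82.4 at 1.25 µM. All 3 libraries at 0.63 µM were below the other 9 (differences -0.82, -2.93 and -0.62, SE 0.54; adjusted p = 0.0273 in limma). Reads that could belong to its copy make its level uncertain, and its call was lost in 8 of 25 other settings, with adjusted p up to 0.0649. DNAJB1, an HSP40 partner of HSP70, was at 62.5, 69.3 and 105 TPM untreated, 33.6, 34.6 and 29.9 at 0.63 µM and 48.8, 44.9 and 50.6 at 1.25 µM. HSPA8 and HSP90AA1, in contrast to these values, had no return at 1.25 µM; HSP90AA1 was at 2029.65 to 5469 TPM untreated, 902 to 1477 at 0.63 µM and 682 to 839 at 1.25 µM, and its call was lost without the third library at 1.25 µM (adjusted p = 0.0508 in limma). Whether these genes differed from each other in shape was not tested.

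Changes complete at 0.32 µM were few. Early plateaus numbered 4 rises and 10 falls, and 3 of the 10 falls were protein-coding genes, against 79.7% of all genes tested. GINS4, a subunit of the replicative helicase, was at 17.9, 17.3 and 26.6 TPM untreated, 3.08, 5.36 and 9.27 at 0.32 µM, 3.71, 2.66 and 2.29 at 0.63 µM and 1.99, 7.86 and 2.28 at 1.25 µM (adjusted p = 0.0194 in limma). The untreated libraries stood above all 9 treated ones, and the call was lost without the first (adjusted p = 0.0559 in limma) or the third (0.0626) of them, or without the second and the third together (0.193). Irregular shapes included TXNIP, a glucose-responsive arrestin, at 2.37, 2.75 and 8.47 TPM untreated, 1.14, 0.72 and 0.76 at 0.32 µM, 1.86, 2.38 and 4.59 at 0.63 µM and 39.5, 41.3 and 17.2 at 1.25 µM. It was below untreated in all 3 libraries at 0.32 µM and above all others at 1.25 µM (differences -1.40, -0.38 and 2.68, SE 0.45; adjusted p = 0.00198 in limma), and its shape was late without the third untreated library.

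Genes of the pathway that IMD-0354 is named for gave little over dose. Of 27 measured NF-κB subunits and targets 1 passed (3.7%, against 5.18% of all genes tested), with list medians of -0.04, 0.04 and -0.01. It was CXCL1, a chemokine gene, irregular in shape, at 31.0 to 36.3 TPM untreated, 41.1 to 51.7 at 0.32 µM, 22.7 to 37.6 at 0.63 µM and 13.3 to 21.4 at 1.25 µM (adjusted p = 0.0261 in limma). The count was 0 without the second or the third library at 0.32 µM or at 1.25 µM, and 2 without the third untreated library. NFKBIA, the NF-κB inhibitor and target, was at 18.3 to 30.9 TPM untreated and 11.2 to 12.2 at 1.25 µM and did not pass (difference -0.98; adjusted p = 0.0756 in limma). Of 26 p53 targets 5 passed (19.2%), GADD45A, SESN2 and TNFRSF10B as rises and DDB2 and PLK2 as falls (3 passed when any 1 library at 1.25 µM was left out). Of 27 NRF2 targets 4 passed (14.8%), all rises (FTH1, FTL, MAFG and SQSTM1), with list medians of 0.27, 0.44 and 0.14. By library that list's median at 1.25 µM was 0.42, 0.46 and -0.45, so the lower value there goes with the third library, and FTL lost its call in 13 of 25 other settings (adjusted p up to 0.0919 in limma). Of 20 cytosolic tRNA synthetases 2 passed (10%), the rises GARS1 and MARS1. They lost their calls in 10 and 15 of 25 other settings (adjusted p up to 0.0892 and 0.127 in limma). None of 23 cholesterol synthesis genes and none of 23 interferon and MHC class I genes passed the F test in limma. Cytosolic ribosomal proteins passed in 2 of 76 (2.63%), RPL23A and RPLP0. A straight line over dose sloped upward for 16 of the 76, against 5.13% of all genes tested, and downward for 0. Their list medians were -0.05, 0.20 and 0.32. Nuclear complex I genes passed in 1 of 37 (2.7%), the late fall NDUFB1, which lost its call in 18 of 25 other settings (adjusted p up to 0.185 in limma). In that list the line sloped upward for 4 genes and downward for 1.

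Melanoma state genes took several shapes. Of 23 measured genes of dedifferentiated melanoma 8 passed (34.8%, against 5.18% of all genes tested). Among them were CAV1 and THBS1 as late falls, CAVIN1 as a step fall, EGFR as a graded rise, CCN1 and FOSL1 as turns and NGFR as an irregular rise. NGFR, a neural crest receptor, was at 6.62 to 10.3 TPM untreated, 4.86 to 6.50 at 0.32 µM, 10.9 to 13.6 at 0.63 µM and 20.5 to 23.6 at 1.25 µM. It was above untreated in every library of both upper doses (adjusted p = 0.00348 in limma). Of 10 measured melanocyte lineage genes 1 passed (10%, against 5.18% of all genes tested), BCL2A1. Transcripts of mitochondrial DNA passed in 2 of 13 (15.4%), MT-CO1 and MT-ND4L. By library the list's median ran from 0.49 to 0.63 at 0.32 µM, while at 0.63 µM it was 0.78, 0.82 and -0.60 and in untreated cells 0.59, -0.06 and -0.57.

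Cells at 48 h gave a comparison with libraries that had no part in choosing the shapes. It was added after the data were seen, and asked whether genes of each 24 h shape also differed, in the same direction, with 0.63 µM at 48 h against untreated cells of 48 h. In one limma fit to all 18 libraries 281 of the 14064 genes were higher (2%) and 870 lower (6.19%). The error of that fit comes in part from the 24 h libraries by which the genes were chosen. The calls at 48 h are therefore not independent of that choice. Late genes were chosen as low and step genes as high with 0.63 µM at 24 h. Shifts of their medians from 24 to 48 h thus follow in part from how the shapes were chosen. Over all genes tested the median difference with 0.63 µM was 0.01 at 24 h and -0.15 at 48 h. Of the 93 late falls, which had a median of -0.28 with 0.63 µM at 24 h, 56 were lower with the same dose at 48 h (60.2%), with a median of -0.99. Of the 52 late rises 17 were higher (32.7%), their median going from 0.21 to 0.61. THBS1 was -0.20 from untreated with 0.63 µM at 24 h and -1.98 at 48 h (SE 0.25; adjusted p = 0.000132 in limma), CAV1 -0.47 and -1.95 (SE 0.13), and TYMS -0.51 and -2.30 (SE 0.25). Whether these differences between times exceed their errors was not tested here.

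At 48 h only 0.63 µM was given, so the comparison is one of direction at that dose, not of shape. Graded falls were lower in 122 of 176 (69.3%) and graded rises higher in 63 of 130 (48.5%), step rises higher in 35 of 85 (41.2%) and step falls lower in 27 of 58 (46.6%). Of genes that turned at 0.63 µM, 3 of 21 rises were higher, 3 of 15 falls were lower and 1 of the 15 falls was higher. The median of step rises, chosen as high with 0.63 µM at 24 h, went from 1.40 to 0.72 and that of graded falls from -0.75 to -1.17. MYC, a step rise at 24 h, was 0.49 above untreated at 48 h (SE 0.31; adjusted p = 0.391 in limma), whereas GDF15 was 6.12 above (SE 0.58; adjusted p = 1.03e-05). The third treated library of 48 h weighed most: without it the counts were 35 late falls, 15 step falls and 77 graded falls, and without either of the first 2 untreated libraries of 48 h late falls were 37. Description numbers at 48 h ran from 51 to 67 in untreated cells and from 75 to 91 with 0.63 µM. This contrast does not cross the divide between the 24 h groups, but the number separates its groups as well.

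**Figure D5:**
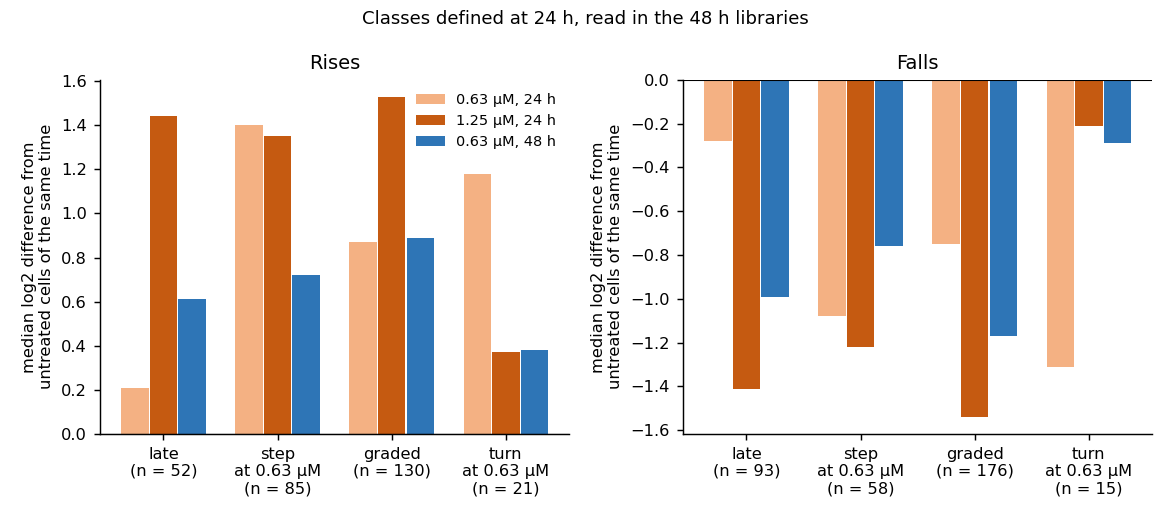
Median difference from untreated cells of the same time on the log2(TPM + 1) scale (bars), by shape class and direction, with 0.63 µM at 24 h, 1.25 µM at 24 h and 0.63 µM at 48 h. Late falls, chosen as low with 0.63 µM at 24 h, stand at -0.28 there, at -1.41 with 1.25 µM at 24 h and at -0.99 with 0.63 µM at 48 h.

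How far the shapes can be trusted gene by gene was limited by 3 libraries per dose. Of the 729 genes 297 kept their shape whichever of the 12 libraries was left out, 210 kept their call, and 118 kept both, among them 51 graded, 33 step, 25 late and 4 turn genes. PPP1R15A, IL24, WIPI1, CCNB1, H1-5, TRIB3, GDF15, SESN2, HSPA8, CAV1, THBS1, TYMS, CEP152 and CCN1 kept both. Among other genes named above, SNHG12 lost its call in 13 of the other settings that tested it (24 or 25 a gene), BCL2A1 in 11, MT-CO1 in 10, RPLP0 in 8, BCL2L2 in 7, DUSP1, CXCL1, KLF6 and MT-ND4L in 4, and KIF20A, DDB2 and EGR1 in 3. Shapes taken from TPM means instead of log2 values were the same for 488 of the 729, with 92 late rises in place of 52 and 42 late falls in place of 93, and 73 step rises and 78 step falls.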

How the data were processed

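Libraries were made from total RNA with a 3′ mRNA sequencing kit (QuantSeq FWD), per the labels' protocols, and cutadapt 1.18, STAR 2.7, RSEM 1.3.1 and DESeq2 are named in the submitters' processing notes with no role stated. Which genome build was used is not given in the sources used here. TPM values per gene are what the authors deposited, in 1 table whose column sums run from 999999.1 to 1000000.5, so depth is unknown and no count test was made. TPM divides by transcript length, while 3′ end libraries do not depend on it, so levels are compared within a gene.

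Symbols were matched for 41209 of 60504 identifiers and GENCODE 29 (GRCh38) coordinates for 56996. Promoters (250 bases before to 50 after the start) came from RefSeq GRCh38.p14 and matched 9772 of 12773 tested genes with a symbol. Genes reaching 1 TPM in 3 or more of the 12 columns were fitted as log2(TPM + 1) with limma 3.58.1 and statmod 1.5.0 in R 4.3.3: 1 mean per group, a mean-variance trend, 8 residual and 4.125 prior degrees of freedom, two-sided tests, Benjamini-Hochberg adjustment. SE is that of a difference between 2 group means and intervals are 95%. The procedure was tested on simulated data.

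Named genes were, per shape and direction, the 3 with the largest difference among those that passed and reached a group mean of 5 TPM, the 5 with the smallest p for curvature or a turn, up to 4 passing members per list, and a preset set. Members, lists, motifs and rules were chosen with earlier results of these data known. Alternatives were other pseudocounts, filters, scalings, variance models, class bounds, library sets, library weights and the replicate number as a block. A few members that are counted in their lists are not reported here by name.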

Additional observations from a re-analysis of the deposited data

How the results depend on the processing

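Without a mean-variance trend 484 genes passed the F test, with all 18 libraries in the fit 1429 and with library weights 1247. Of genes departing from a straight line there were 1 with a pseudocount of 0.1 TPM, 7 with no filter, 4 with TPM rescaled without the 10 most abundant genes, 4 with no trend, 9 with all 18 libraries and 4 with library weights; these included RNU6-1016P, TPM3P6, RNF139-DT, MTHFD2, DDIT4 and SNHG3. A peak at 0.63 µM was found for 1 gene, RNF139-DT, with no filter, no trend or all 18 libraries (adjusted p = 0.0415, 0.0301 and 0.0223 in limma). RNF139-DT and TPM3P6 could pass the main filter only through the dose group in which each was high. Their shape and their place among genes tested thus rest on the same libraries. Without untreated replicates 2 and 3 the rising and falling trends numbered 346 and 347 and early plateaus 5. Late genes numbered 267 with all 18 libraries, 261 with weights and 92 with bounds at 25% and 75% of the full response; step genes 280, 250 and 79, and 93 with no filter; graded genes 539 with all 18 libraries and 196 with no trend. Early plateaus numbered 25 with all 18 libraries or weights, 7 with a pseudocount of 0.1 TPM and 8 with a filter of 5 TPM. Turns at 0.63 µM numbered 93 with all 18 libraries, 82 with weights and 18 with no trend, turns at 0.32 µM 27 and 22, and irregular shapes 198, 159, 45 and, with no filter, 42. Leaving out each library gave 271 to 923 genes by the F test, 363 to 723 rising and 418 to 880 falling trends, 0 to 2 departures, 0 peaks and 0 or 1 trough (C1DP1, without the third library at 0.32 µM), 43 to 234 late, 71 to 165 step, 117 to 313 graded, 5 to 17 early plateau, 10 to 54 and 2 to 13 turns at 0.63 and 0.32 µM and 14 to 137 irregular genes. Over all genes no pairing by replicate number was seen. Deviations of same-numbered libraries correlated at -0.0918 to 0.0848 (mean 0.0192) and those of differently numbered ones at -0.12 to 0.113 (mean -0.00945). This does not exclude effects shared by fewer genes. For mitochondrial DNA transcripts the third library had the lowest median of its group at every dose (-0.57, 0.49, -0.60 and 0.25 from untreated to 1.25 µM). With the replicate number as a block 560 genes passed, 505 of them among the 729, with 670 rising and 867 falling trends and 21 turns at 0.63 µM. Among 102 named genes that passed, 52 stayed past the threshold without each library and 51 under every alternative. No named gene reversed, but of the 729 genes 712 kept their direction without untreated replicates 2 and 3, 717 with shapes from TPM means and 718 without the third untreated library; with a filter of 5 TPM 653 did, with fewer genes tested. The cause of these shifts was not tested, and unknown depth leaves the precision of single low values unknown.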

Other observations

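By biotype the shapes differed in makeup. Protein-coding genes were 95.3% of step rises, 93.8% of graded falls and 92.5% of late falls, 79.7% of all genes tested, 60% of falls that turned at 0.63 µM and 30% of falls with an early plateau. None of the 6 rises that turned at 0.32 µM was protein-coding. The median of the highest group mean was 77.7 TPM in graded falls, 27.8 TPM in step rises and 2.73 TPM in rises that turned at 0.32 µM, against 9.12 TPM over all genes tested.

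TPM3P6, a processed pseudogene, was listed at 0 in untreated cells and at 0.63 and 1.25 µM, with a mean of 3.43 TPM at 0.32 µM. RNF139-DT, a long noncoding RNA, had means of 0.17, 0.07, 2.99 and 0.08 TPM over the 4 groups, and was the gene with the smallest p for a peak at 0.63 µM. Both genes could pass the filter only through the dose group in which they were high.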
